A study of Homo sapiens with 12 samples.

Results

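EGR1, EGR3, IER2, IER3, IER5, KLF4, KLF6, KLF10, MYC and DUSP1 are immediate early genes outside the AP-1 family, and they were followed across an siRNA experiment on NELFA and YAP1 in MDA-MB-231 cells, an established triple-negative breast cancer line. They were chosen by gene symbol, as genes whose promoters are known to hold paused RNA polymerase II. The choice was made with earlier results of these data known. All 10 were found once each among the 58051 genes of the count table. Cells received a non-targeting siRNA pool (siControl), a pool against NELFA (siNELFA), a pool against YAP1 (siYAP) or both gene pools together (siNELFA+siYAP, the double knockdown), with 3 libraries in each group. All groups were of the same line in medium with fetal bovine serum and were transfected with DharmaFECT at 50 to 100 nM siRNA. The labels give harvests at 48 and 72 hours without saying which library is which, and the study's methods place RNA for sequencing at 72 hours. The submitters' library names number the siControl, siNELFA and siYAP libraries as separate replicates but give the 3 double-knockdown libraries one shared replicate mark and a running number. Whether those 3 came from separate cultures or are repeats of one cannot be told apart from the labels, so n = 3, the SDs, the standard errors and the p-values of every comparison with the double knockdown may rest on technical spread in that group. The knockdowns were partial and made with siRNA pools, and no rescue or untransfected sample is among the libraries analysed here.

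Immediate early genes are switched on within minutes of a growth factor or stress signal, without new protein synthesis. Signals through the ERK and stress-activated kinases reach them by way of serum response factor (SRF) and CREB, and many carry a polymerase that has started and then halted just past the start site. The NELF complex, of which NELFA is a subunit, holds that polymerase, and YAP1 is a coactivator that works with the TEAD factors. In breast cancer cells these genes are known for growth factor responses (EGR1, MYC), for survival under stress (IER3) and for feedback on the kinases that induce them (DUSP1).

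The genes were compact. By GENCODE 44 (GRCh38) they had 0 to 4 introns, with a median of 1.5, against a median of 8 over 11638 protein-coding genes averaging at least 50 counts. Their spans ran from 1350 bases (IER3) to 9286 bases (KLF6), and all 10 were shorter than the median span of 34703.5 bases. EGR1 lies at chr5:138465479-138469303 on the plus strand, DUSP1 at chr5:172768096-172771195 on the minus strand, IER2 at chr19:13150411-13154911 on the plus strand and IER3 at chr6:30743199-30744548 on the minus strand. IER5, at chr1:181088700-181092900 on the plus strand, was the one member with no intron. KLF4 lies at chr9:107484852-107490482 and KLF6 at chr10:3775996-3785281, both on the minus strand.

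RefSeq promoter sequence (GRCh38.p14) was matched for 6 of the 10 genes, EGR1, DUSP1, IER2, IER5, KLF4 and KLF6, and the 250 bases before the start were searched on both strands. IER3, EGR3, KLF10 and MYC were not matched. Shown here are the stretches just upstream of EGR1 (chr5:138465329-138465478, plus strand), whose mean was lowest in siNELFA, of DUSP1 (chr5:172771196-172771395, minus strand), and of IER5 (chr1:181088640-181088699, plus strand), which was lowest in the double knockdown. Capitals mark CArG boxes (the SRF motif), the cyclic AMP response element TGACGTCA and its core TGACG on either strand, and the TATA box TATAA.
EGR1 upstream: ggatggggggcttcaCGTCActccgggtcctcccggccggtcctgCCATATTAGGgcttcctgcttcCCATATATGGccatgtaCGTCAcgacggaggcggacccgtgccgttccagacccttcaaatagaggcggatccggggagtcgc
DUSP1 upstream: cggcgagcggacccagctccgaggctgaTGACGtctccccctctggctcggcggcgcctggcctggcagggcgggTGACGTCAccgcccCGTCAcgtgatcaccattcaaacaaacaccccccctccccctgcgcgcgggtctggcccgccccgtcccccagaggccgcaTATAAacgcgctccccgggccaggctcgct
IER5 upstream: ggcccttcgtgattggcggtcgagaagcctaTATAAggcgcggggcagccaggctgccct

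The promoters differed in the letters they held. EGR1 had 2 CArG boxes, at -105 to -96 and at -83 to -74 from the start, a motif in 1.16% of 35116 promoters. DUSP1 had the full TGACGTCA at -125 to -118, found in 1.65% of promoters. The core TGACG, which the full element contains, was in 4 of the 6 (EGR1, DUSP1, IER2 and KLF4) and in 21.2% of promoters. A TATAA lay at -30 to -26 in DUSP1, at -29 to -25 in IER5 and within a few bases of those positions in KLF4, and 18.9% of promoters held one. The E-box CACGTG was in 3 of the 6 (DUSP1, KLF4 and KLF6) and in 6.34% of promoters, and GGGCGG was in 4 of the 6 and in 42.6%. KLF6 held GCGGGGGCG, the letters that EGR proteins bind, at -65 to -57, as did 4.72% of promoters, and its last bases overlap a GGGCGG. These matches are descriptions of letters and were not tested as binding sites.

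The depth was 9608145 to 18803104 counts per library. NELFA, the targeted subunit, was at 32.2% of its siControl mean in siNELFA and at 26.1% in siNELFA+siYAP, and YAP1 was at 15.6% in siYAP and 15.2% in siNELFA+siYAP. By edgeR's quasi-likelihood test the fall of NELFA in siNELFA had an adjusted p of 0.381, or 0.000385 once replicate numbers entered as a block. The line's markers VIM, CD44, EGFR, AXL and MSN were high in all libraries, and ESR1 and PGR had at most 6 and 4 counts. The replicate 1 libraries of siControl, siNELFA and siYAP stood apart from the other libraries: MALAT1 was their largest gene, at 3.14% to 4.41% of counts, and CDH1, an epithelial cadherin that this line is known to lack, had 230, 599 and 169 counts in them against 0 to 17 elsewhere. The 5 hormone receptor and luminal markers summed to 25.0 to 53.3 TPM in those 3 groups and to 20.9 to 27.1 TPM in the double knockdown, with ERBB2 and EPCAM present in every library and ESR1 and PGR at or near 0. Of the 4 leukocyte and endothelial markers CD3E had no counts, PTPRC at most 4, VWF at most 13 and PECAM1 30 to 85 in each library, and they summed to 0.312 to 2.75 TPM over the 12 libraries. The part of these libraries' makeup in the early genes' values was not tested, and results are given below with and without them.

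Compared per gene length, in TPM (the authors' values scaled by transcript length and library total), the early genes spanned a wide range. In siControl IER3 stood highest at 556 ± 107 TPM (SD, n = 3), above 99.2% of 15775 protein-coding genes with a value. KLF6 at 109 ± 21.1 TPM and MYC at 95.7 ± 19.1 TPM followed. Those neighbours did not differ beyond their spread. KLF10 (28.8 ± 2.37 TPM), IER5 (25.9 ± 5.12), DUSP1 (22.4 ± 8.23), IER2 (21.0 ± 5.38) and KLF4 (19.3 ± 5.74) formed a middle group whose neighbours also lay within each other's spread. EGR1 at 3.05 ± 1.22 TPM was above 30.9% of those genes, and EGR3 at 0.122 ± 0.115 TPM was close to none. IER3 was the highest and EGR3 the lowest in each of the 4 groups.

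**Figure D1:**
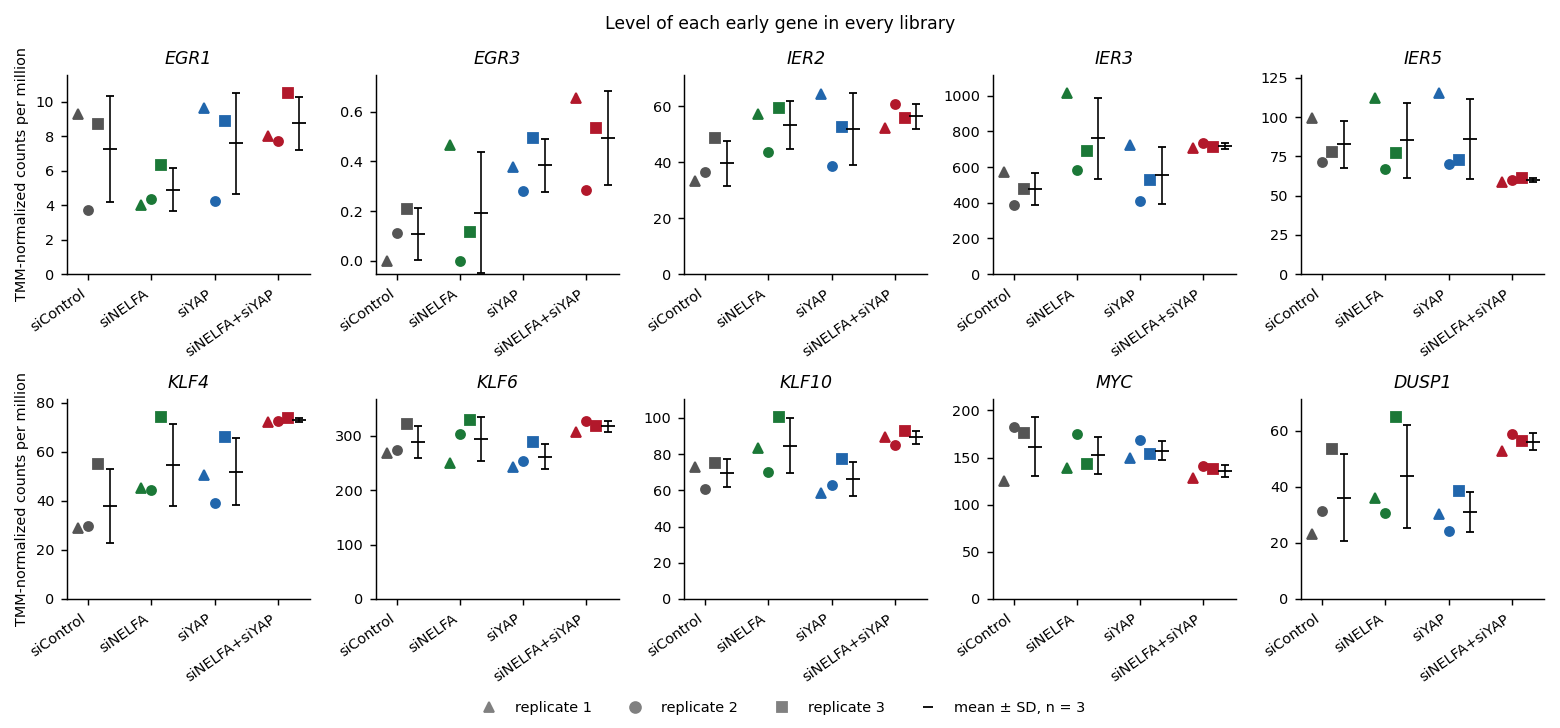
Each panel plots 1 early gene, with CPM (counts scaled to the library's total with TMM factors) on a linear y axis whose scale differs between panels, and the 4 siRNA groups on the x axis. Symbols are the 3 libraries of a group and the black bar is their mean ± SD. The siNELFA+siYAP libraries of KLF4 sit between 72.1 and 73.7 and those of IER5 between 58.5 and 61.1, while the other groups are spread more widely.

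Among the EGR genes, zinc finger factors that act early after growth factor signals, EGR1 was low and variable. In CPM, normalized counts that compare 1 gene between libraries, EGR1 was at 9.31, 3.71 and 8.75 CPM in siControl libraries 1, 2 and 3 and at 4.05, 4.36 and 6.33 CPM in siNELFA. It was at 9.65, 4.23 and 8.92 CPM in siYAP and at 8.05, 7.72 and 10.51 CPM in siNELFA+siYAP. The siControl and siYAP groups each held 1 low library, replicate 2 in both, so siNELFA lay inside the siControl range, whereas every double-knockdown library was above every siNELFA library. EGR3 had 0, 2 and 4 counts in siControl and 6, 0 and 2 in siNELFA. In the siYAP libraries it had 4, 4 and 8, and in siNELFA+siYAP libraries 8, 4 and 10. EGR3 did not pass the filter on low counts in any comparison and was not tested, so the tests cover 9 of the 10 genes. Most of its counts lie near the 3 counts that a count of 0 allows, and no fold is given.

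IER2 and IER5 encode related proteins that act in the nucleus, and IER3 encodes an unrelated, stress-induced regulator of cell survival. IER3 was at 569.8, 388 and 476 CPM in siControl and at 1017, 582 and 687 CPM in siNELFA, with no overlap. It was at 725, 409 and 530.2 CPM in siYAP and at 707, 737 and 714 CPM in siNELFA+siYAP. All 6 libraries that received the NELFA pool were thus above all 3 of siControl, while siYAP overlapped both. IER2 was at 33.4, 36.6 and 48.7 CPM in siControl and 57.1, 43.6 and 59.2 in siNELFA. The siYAP libraries held 64.4, 38.8 and 52.6 CPM and the siNELFA+siYAP libraries 52.3, 60.9 and 55.7 CPM. The double knockdown lay wholly above siControl, and the single knockdowns did not. IER5 was at 99.7, 71.2 and 77.6 CPM in siControl and 112, 66.8 and 76.8 in siNELFA. With the YAP1 pool alone it reached 116, 70.0 and 72.8 CPM, and with both pools 58.5, 59.8 and 61.1 CPM. It was the one member whose double-knockdown libraries were below every library of the other 3 groups.

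KLF4, KLF6 and KLF10 are zinc finger factors of the Krüppel-like family: KLF4 is known from reprogramming to pluripotency, KLF6 as a tumor suppressor and KLF10 as an early gene of TGF-beta signaling. KLF4 was at 28.7, 29.7 and 55.1 CPM in siControl and 45.4, 44.5 and 73.9 in siNELFA. The values were 50.6, 38.9 and 66.1 CPM for siYAP and 72.1, 72.5 and 73.7 CPM for siNELFA+siYAP. Replicate 3 was the highest library in each of the first 3 groups, and the double knockdown was above all of siControl and siYAP. KLF10 was at 73.1, 60.8 and 75.1 CPM in siControl and 83.6, 70.1 and 100.3 in siNELFA. The siYAP libraries held 58.8, 63.2 and 77.1 CPM and the siNELFA+siYAP libraries 89.7, 85.3 and 92.8 CPM. Here too the double knockdown did not overlap siControl or siYAP. KLF6 was at 268, 275 and 322 CPM in siControl and 249.7, 303 and 328 in siNELFA. With the YAP1 pool alone it reached 243, 254 and 288 CPM, and with both pools 307, 327 and 317 CPM. Its groups differed little, and only siYAP and the double knockdown did not overlap.

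MYC, the growth-promoting factor that pairs with MAX, was at 126, 182 and 176 CPM in siControl and 139, 175 and 143 in siNELFA. The values were 149.6, 169 and 153 CPM for siYAP and 129, 141 and 138 CPM for siNELFA+siYAP. The double knockdown lay below siYAP without overlap, but siControl replicate 1 was lower still. DUSP1, a phosphatase that switches off MAP kinases, was at 23.3, 31.5 and 53.4 CPM in siControl and at 35.9, 30.7 and 64.8 CPM in siNELFA. It was at 30.3, 24.2 and 38.4 CPM in siYAP and at 52.8, 59.0 and 56.5 CPM in siNELFA+siYAP. Like KLF4, DUSP1 was highest in replicate 3 of each of the first 3 groups, and its double-knockdown libraries were above every siYAP library, 2 of the 3 also above every siControl library.

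The comparison of siNELFA with siControl asks what losing a pausing subunit does to genes known for pausing. IER3 showed the largest difference, at 762 ± 227 CPM against 478 ± 90.9 CPM (SD, n = 3 each), a log2 fold change of 0.68 ± 0.26 (SE). It was the only member past an unadjusted p of 0.05, 1 of 9 tested beside 4.46% of all genes. By edgeR's quasi-likelihood test its unadjusted p was 0.0328 and its adjusted p over 17727 genes was 1.00, and no member passed the adjusted threshold, where 0.00564% of genes did. KLF4 (log2 fold change 0.54 ± 0.33), IER2 (0.44 ± 0.22), KLF10 (0.29 ± 0.20) and DUSP1 (0.29 ± 0.39) had positive values, and IER5 (0.05 ± 0.25), KLF6 (0.03 ± 0.17) and MYC (-0.08 ± 0.19) were near 0. EGR1 had the lowest value, -0.55 ± 0.41, with a 95% interval of -1.36 to 0.25 that includes 0. The median over the 9 genes was 0.29, beside 0.00 over all genes tested. The line's 5 markers had a median of 0.25 in the same comparison, 5 of 5 positive and 4 of them past an unadjusted p of 0.05 with the replicate block, and their part in the early genes' values was not tested. IER3 was also the only member whose groups did not overlap, as did not 12.1% of genes.

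With the replicate number as a block, 2 of the 9 genes passed the adjusted threshold, beside 5.21% of genes. Same-numbered libraries of siControl, siNELFA and siYAP shared the replicate 1 difference. Over all genes, whether replicates 2 and 3 also match by number is not shown. For each of the 9 tested early genes, replicate 3 over replicate 2 in CPM lay on the same side of 1 in these groups. KLF4 was at 1.86, 1.66 and 1.70 times in siControl, siNELFA and siYAP. IER2 was at 1.33, 1.36 and 1.36 times and MYC at 0.97, 0.82 and 0.91 times. The share of all genes doing so was not computed. With the block IER3 rose with a log2 fold change of 0.66 ± 0.09 (edgeR, adjusted p = 0.00223) and KLF4 with 0.56 ± 0.12 (adjusted p = 0.0217). IER2 and KLF10 were past an unadjusted p of 0.05 only, with adjusted p of 0.0887 and 0.172 by edgeR, and 20.2% of genes were past that level. Within replicate numbers, the siNELFA library held 1.78, 1.501 and 1.44 times the IER3 of the same-numbered siControl library and 1.58, 1.498 and 1.34 times the KLF4. IER2 (1.19 to 1.71 times) and KLF10 (1.14 to 1.34 times) were also higher in 3 of 3 pairs, whereas EGR1 ranged from 0.435 to 1.17 times and was higher in 1 of 3. The share of all genes with the same direction in 3 of 3 pairs was not computed. Without the replicate 1 libraries of both groups and without a block, IER3 had a log2 fold change of 0.57 with an edgeR adjusted p of 0.123, and KLF4 0.49 with 0.502. With siNELFA replicate 1 alone left out, 0 of 9 were past an unadjusted p of 0.05 by edgeR, beside 4.04% of genes.

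The comparison of siYAP with siControl asks how the genes respond to loss of the coactivator, and it gave no call. The log2 fold changes ran from -0.21 (DUSP1) to 0.47 (KLF4), with standard errors of 0.16 to 0.46 and edgeR adjusted p of 1.00 throughout. By edgeR 0 of 9 members were past an unadjusted p of 0.05, beside 1.3% of genes, and 0.00578% of genes passed the adjusted threshold. DESeq2 also placed 0 of the 9 past an unadjusted p of 0.05, beside 1.59% of genes. Of the 9 tested, none had groups without overlap, beside 7.8% of genes. The median was 0.07 over the 9 genes and 0.00 over all genes. With the block, KLF4 (log2 fold change 0.49 ± 0.15) was past an unadjusted p of 0.05, with an adjusted p of 0.525 by edgeR, as were 9.11% of genes unadjusted. Within replicate numbers EGR1, IER2, IER3 and KLF4 were higher in 3 of 3 pairs, by 1.02 to 1.93 times, and KLF6 was lower in 3 of 3, at 0.895 to 0.924 times. EGR1 was at only 1.02 to 1.14 times, and the share of all genes with one direction in 3 of 3 pairs was not computed. For IER2 the replicate 1 pair stood apart, at 1.93 times against 1.06 and 1.08.

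The double knockdown against siControl gave the largest value of any member against siControl, for KLF4. KLF4 averaged 72.8 ± 0.811 CPM against 37.8 ± 14.98 CPM (SD, n = 3 each), a log2 fold change of 0.94 ± 0.25 (SE), and IER3 averaged 719 ± 15.6 CPM, a log2 fold change of 0.59 ± 0.16. IER2 (0.51 ± 0.17) and KLF10 (0.36 ± 0.13) were higher as well, and IER5 was lower at 59.8 ± 1.30 CPM against 82.9 ± 14.96 CPM, a log2 fold change of -0.47 ± 0.16. These 5 were past an unadjusted p of 0.05 (4 higher and 1 lower), 5 of 9 tested beside 18.5% of genes. By edgeR their adjusted p lay between 0.124 and 0.210, so none passed, where 0.428% of genes did. The same 5 had groups without overlap, as did 29.7% of genes. DUSP1 had a value of 0.64 ± 0.28 with an unadjusted p of 0.0549, EGR1 of 0.28 ± 0.36, KLF6 of 0.14 ± 0.11 and MYC of -0.25 ± 0.15. The median of the 9 genes was 0.36, beside -0.03 over all 17533 genes tested. The line's 5 markers were again 5 of 5 positive, with a median of 0.30 and 3 past an unadjusted p of 0.05, and the 3 tested hormone receptor and luminal markers were all negative, with a median of -0.55. Their part was not tested.

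How many members passed in the double knockdown turned on 1 siControl library. Without siControl replicate 1, 6 of the 9 passed the adjusted threshold, beside 24.4% of genes: IER3 (log2 fold change 0.75, edgeR adjusted p = 2.78e-06), KLF4 (0.79), IER2 (0.41) and KLF10 (0.40) higher, and MYC (-0.39, adjusted p = 0.000317) and IER5 (-0.30) lower. MYC was not among the 5 named above, and by edgeR its adjusted p was 0.432 with that library in. Without replicate 1 of both groups 5 passed, beside 17.9% of genes, with IER5 at an edgeR adjusted p of 0.0504. DESeq2 on all 6 libraries called IER3 (adjusted p = 0.0389) and KLF4 (adjusted p = 0.0157), beside 7.66% of genes. The replicate numbers of the double knockdown do not follow those of the other groups, and with the block no member passed the adjusted threshold, where 0.0114% of genes did. The median coefficient of variation over 9 early genes was 4.23% among the 3 double-knockdown libraries, which may be repeats of 1 culture, and 19.3% to 25.2% in the other groups, and over 12971 genes it was 6.23% against 19.4% to 20.8%.

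**Figure D2:**
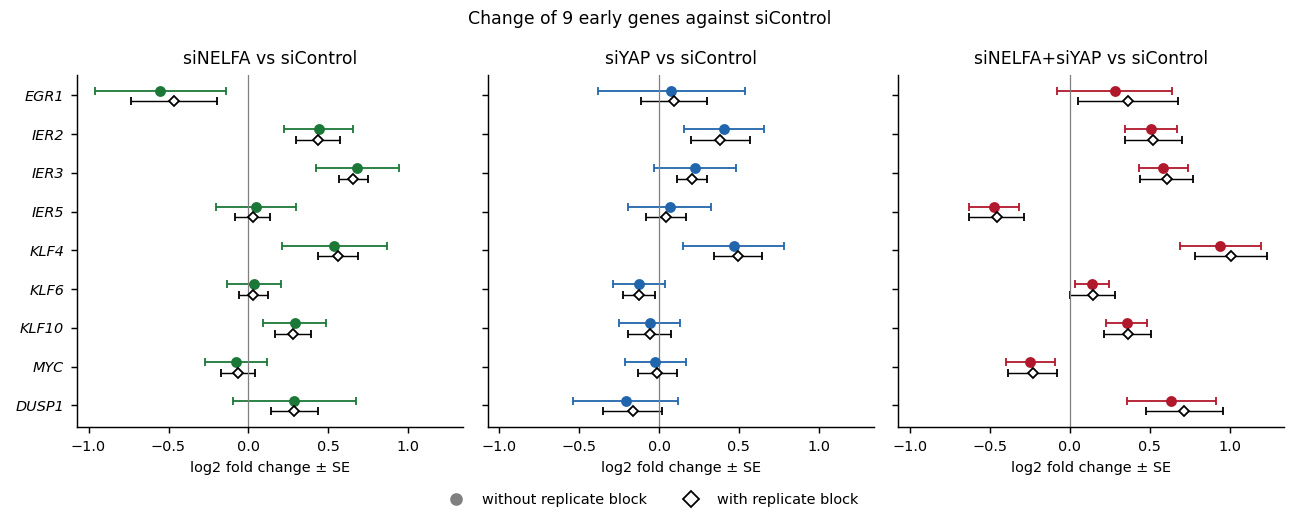
The x axis is the log2 fold change against siControl with its standard error, in 3 panels for siNELFA, siYAP and siNELFA+siYAP, and the rows are the 9 tested early genes. Filled circles are from the fit without a replicate block and open diamonds from the fit with it. KLF4 (0.94), IER3 (0.59) and IER2 (0.51) lie to the right in the double knockdown and IER5 (-0.47) to the left, and the block shortens the error bars in the first panels.

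Direct comparisons between knockdowns were made because an effect against siControl in one and not in another does not show that they differ, and the siControl libraries are shared by the comparisons above. Against siYAP, the double knockdown adds the NELFA pool. DUSP1 averaged 56.1 ± 3.11 CPM against 31.0 ± 7.15 CPM, a log2 fold change of 0.85 ± 0.18 (edgeR adjusted p = 0.132, unadjusted 0.00162), the smallest unadjusted p among the members in any comparison without a block. KLF4 (0.48 ± 0.19), KLF10 (0.42 ± 0.13) and KLF6 (0.27 ± 0.10) were also higher past an unadjusted p of 0.05 and IER5 (-0.54 ± 0.21) lower, 5 of 9 beside 15.5% of genes, and none passed the adjusted threshold, where 0.035% of genes did. These 5 and MYC, 6 of 9, did not overlap between the groups, beside 26.5% of genes. The median over the 9 genes was 0.27, beside -0.03 over all genes tested. The line's 5 markers were 5 of 5 positive, with a median of 0.34 and 3 past an unadjusted p of 0.05, and their part was not tested. Without siYAP replicate 1, 6 members passed by edgeR (IER3, KLF6, KLF10 and DUSP1 higher, IER5 and MYC lower), beside 16.5% of genes, and DESeq2 called DUSP1 (adjusted p = 0.00312), beside 4.37%.

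Against siNELFA, the double knockdown adds the YAP1 pool. EGR1 averaged 8.76 ± 1.52 CPM against 4.91 ± 1.24 CPM, a log2 fold change of 0.84 ± 0.26, and IER5 had a value of -0.51 ± 0.20. Both were past an unadjusted p of 0.05 and did not overlap, 2 of 9 beside 6.62% of genes by p and 15.1% by overlap, and both had an edgeR adjusted p of 0.735, where 0.00573% of genes passed. IER3 (-0.08 ± 0.20), KLF10 (0.08 ± 0.15) and IER2 (0.08 ± 0.15) had values near 0. Their 95% intervals were -0.48 to 0.31, -0.21 to 0.37 and -0.22 to 0.38. Without siNELFA replicate 1, IER3 had a log2 fold change of 0.19. DUSP1 had 0.36 ± 0.27, KLF6 0.12 ± 0.12 and MYC -0.16 ± 0.12. KLF4 had 0.42 ± 0.20, with an unadjusted p of 0.0752 by edgeR and a 95% interval of 0.02 to 0.82. Those intervals assume normal errors and may be too narrow with 3 libraries a group. They do not set a limit of detection, since EGR1 at 0.84 did not pass the adjusted threshold in this comparison.

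Comparing the single knockdowns, siNELFA with siYAP, no member was past an unadjusted p of 0.05 without the block, beside 5.63% of genes by edgeR and 6.56% by DESeq2, and none of the 9 had groups without overlap, beside 12.7%. With the block 3 of 9 passed the adjusted threshold, beside 15.8% of genes: IER3 (log2 fold change 0.45 ± 0.08, edgeR adjusted p = 0.00021), DUSP1 (0.46 ± 0.12, adjusted p = 0.00990) and KLF10 (0.34 ± 0.10, adjusted p = 0.0180) rose in siNELFA relative to siYAP. EGR1 had a blocked value of -0.57 ± 0.25 with an edgeR adjusted p of 0.123. KLF4, which passed with the block in siNELFA against siControl, had 0.07 ± 0.10 between the single knockdowns. The median over the 9 genes was 0.07 without the block. The line's 5 markers were 5 of 5 positive there, with a median of 0.24, and 3 passed the adjusted threshold with the block. Their part was not tested. The interaction, which asks whether the NELFA pool acts differently with the YAP1 pool present, placed 0 of 9 members past an unadjusted p of 0.05 by edgeR and by DESeq2, beside 1.76% and 2.33% of genes. Its values ran from -0.58 ± 0.34 (IER5) to 0.75 ± 0.55 (EGR1), with adjusted p of 1.00. With the block IER5 was past an unadjusted p of 0.05, at -0.51 ± 0.22 (edgeR adjusted p = 0.912), beside 3.92% of genes.

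Other genes of the same pathways were counted from fixed lists. Of 19 further immediate early genes outside AP-1, 15 were tested in siNELFA against siControl. Their median was 0.32 (log2 fold change), and with the block 3 rose past the adjusted threshold, where 5.21% of genes were called in either direction: SGK1, a serum-induced kinase (0.73 ± 0.15), TRIB1, a pseudokinase (0.57 ± 0.14), and PLK2, a polo-like kinase (0.37 ± 0.09). Of 6 AP-1 and ATF3 genes JUNB alone rose with the block, against the same share of genes (0.87 ± 0.14, edgeR adjusted p = 0.00541), and the median without it was 0.56. In the double knockdown against siControl these lists had medians of 0.52 (17 tested) and 0.58 (6 tested), 7 and 3 of them past an unadjusted p of 0.05, and none past the adjusted one. All those past it were higher, as 8.27% of genes were.

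The relatives of KLF4, KLF6 and KLF10 did not share one direction. Of 12 other KLF genes tested, KLF11 alone was called. It fell in the double knockdown (log2 fold change -1.05 ± 0.15, edgeR adjusted p = 0.0477, without a block, and 0.194 with it), where 0.428% of genes passed without a block. With the block it also fell in siNELFA (-0.77 ± 0.14, edgeR adjusted p = 0.00755), beside 5.21% of genes. The list's medians were 0.02 in siNELFA and 0.15 in the double knockdown. Among 7 other MAP kinase phosphatases tested, DUSP5 rose (0.61 ± 0.10) and DUSP6, the cytoplasmic ERK phosphatase, fell (-0.78 ± 0.11) in siNELFA with the block. Their edgeR adjusted p were 0.00621 and 0.00181, beside 5.21% of genes called, and neither passed without the block. Of 13 genes of the ERK and SRF route, ELK3, a partner of SRF, fell in siNELFA with the block (-0.88 ± 0.16, edgeR adjusted p = 0.00884). That is 1 of 13 beside the same share of genes, and the list's median was -0.05. Between the single knockdowns and with the block, 4 other immediate early genes (SGK1, PLK2, PPP1R15A and MCL1) and ATF3 were higher in siNELFA past the adjusted threshold. That is 4 of 16 and 1 of 6 tested, beside 15.8% of genes called in either direction. Of 7 other MAP kinase phosphatases 2 were higher and 2 lower past the same threshold. Lower calls were also found for 2 of 13 ERK and SRF genes and 1 of 12 other KLF genes, with no higher ones.

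MYC's surroundings were mixed as well. In its dimerization network of 9 genes, MXD4, which competes with MYC for MAX, rose in the double knockdown (0.83 ± 0.12, edgeR adjusted p = 0.0490, and 0.219 with the block). There 0.428% of genes passed without the block. With the block MXD4 also rose in siNELFA (0.61 ± 0.15, edgeR adjusted p = 0.0321), beside 5.21% of genes. Of 15 established MYC target genes, 0 passed even an unadjusted p of 0.05 in siNELFA, siYAP or the double knockdown against siControl without the block (edgeR), beside 4.46%, 1.3% and 18.5% of genes, and their medians were -0.03, -0.13 and -0.04. With the block 2 of the 15 were lower past an unadjusted p of 0.05 in siNELFA and 2 in siYAP, beside 20.2% and 9.11% of genes, none passed the adjusted threshold, and 13 of the 15 had negative values in siYAP without the block. The EGR corepressors NAB1 and NAB2 had values of -0.22 and -0.15 in siNELFA. The lists were not tested as lists.

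Across the 12 libraries, KLF4 and DUSP1 had the most alike levels among the 9 tested genes (Pearson r = 0.86 on log2 CPM), followed by KLF6 and DUSP1 (0.82) and IER2 and KLF4 (0.82), and IER5 and KLF6 the most opposed (-0.72). Outside the list and among 12962 genes averaging at least 50 counts, the levels most like EGR1 were those of DOCK4 (r = 0.91), the pseudogene HMGN2P46 (0.86) and TNFSF15 (0.85). Those most like MYC were RNPS1 (0.95), THOC3 (0.93) and MRPS26 (0.93). These values describe 12 points that share groups, replicate numbers and the library set that stands apart, and they carry no test.

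Annotated antisense transcripts overlap IER2, IER3, KLF4, MYC, DUSP1 and EGR3, and whether the counting used strand is not given in the sources used here. Those with a row in the table had at most 47 counts in any library (HCG20, over IER3), against at least 5261 counts for IER3, and the one over MYC (CASC11) at most 14. These low counts do not show how reads within the overlaps were assigned, which was not tested. Transcripts over IER2 and KLF4 without a row could not be checked. For EGR3, at most 10 counts itself, the overlapping transcript had up to 6, so its reads cannot be told apart from those of its antisense partner.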

How the data were processed

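RNA of 12 MDA-MB-231 samples (4 siRNA groups, 3 libraries each, which the study's methods call independent biological replicates, although the library names leave it unclear whether the siNELFA+siYAP libraries are repeats of 1 culture) was sequenced on a stranded, ribosome-depleted protocol. The authors aligned reads to GRCh38 with STAR, and deposited raw counts per gene made with featureCounts, which the submitters' processing notes name. The deposited TPM values, scaled by the authors for gene length and depth, served for levels between genes and as an alternative. The table scaled by length and depth without a fixed total was not used.

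From the counts, edgeR 4.0.16 under R 4.3.3 fitted each comparison, with TMM factors and the quasi-likelihood test, on the 6 libraries of its 2 groups, without a block, and the interaction on all 12. Genes were kept by filterByExpr (minimum count 10, minimum total 15, proportion 70%). Standard errors are the log2 fold change divided by the square root of F, 95% intervals assume normal errors, and p-values were adjusted by Benjamini-Hochberg over all tested genes at 0.05. Unadjusted p under 0.05 is also given, as the study called genes by DESeq2 at that level. The replicate block adds the number as a term. Deviations from group means correlated at 0.65 to 0.89 between same-numbered libraries of siControl, siNELFA and siYAP over 12971 genes. With siNELFA+siYAP they correlated at -0.05 to 0.03. The labels give only numbers, so the block for the first 3 groups rests on these correlations. Deviations within a group cancel out, and replicate 1 stood apart in these 3 groups. The correlations therefore show a shared replicate 1 difference and cannot show whether replicates 2 and 3 match by number.

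Alternatives were DESeq2 1.42.0, RLE factors, no filter, the block, all 12 libraries in 1 fit, limma 3.58.1 on log2(TPM + 1) and log2(TPM + 0.1), leaving out each library, and, chosen after seeing the data, leaving out replicate 1 of both groups. The members and lists were chosen with earlier results of these data known. All 10 members are named with every library. Of other lists, genes past an adjusted p of 0.05 with or without the block are named (at most the 6 largest changes per list). Some called between the single knockdowns are given as counts only. The 3 genes most like EGR1 and MYC by Pearson r are also named. Promoters came from RefSeq GRCh38.p14 and gene models from GENCODE 44. Scripts were tested on simulated counts, and figures were drawn with matplotlib 3.10.9.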

Additional observations from a re-analysis of the deposited data

How the results depend on the processing

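Over the single early genes' values under the alternatives, 813 kept their direction and their side of the adjusted threshold, 29 kept the direction and newly passed it, and 58 turned sign. In the double knockdown against siControl, IER2, IER3, KLF4, KLF6, KLF10 and DUSP1 stayed positive and IER5 and MYC negative in each alternative run. EGR1 turned sign there without siControl replicate 2. The depth limits EGR3, which was not tested, and EGR1, with 52 to 196 counts per library. The causes of the shifts below were not tested. The replicate block was run in all comparisons, and beyond the calls given in the report it changed none of the early genes' calls at the adjusted threshold.

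In this paragraph the values are counts of genes past the adjusted threshold unless early genes are named. DESeq2 gave 28 genes in siNELFA against siControl, 2 in siYAP against siControl, 1342 in siNELFA+siYAP against siControl, 749 against siYAP, 45 against siNELFA and 78 in siNELFA against siYAP, with 2 early genes in the double knockdown against siControl and 1 against siYAP. Without a filter on low counts these were 3 in siNELFA, 381, 222 and 26 in the double knockdown against siControl, siYAP and siNELFA, and 6 between the single knockdowns, with 1 early gene in the double knockdown against siYAP. The replicate block gave 924 genes in siNELFA, 3 in siYAP, 2 and 1 in the double knockdown against siControl and siYAP, and 2721 between the single knockdowns. With the block 2 early genes passed in siNELFA against siControl and 3 against siYAP, and 4, 1 and 4 were past an unadjusted p of 0.05 in siNELFA, in siYAP and between them, with 1 in the interaction. With all 12 libraries in 1 fit there were 8 genes in siNELFA and 17 between the single knockdowns, and 3 and 0 early genes past an unadjusted p in the double knockdown against siYAP and siNELFA. On log2(TPM + 1), limma placed 0, 3 and 1 early genes past an unadjusted p in siNELFA, the double knockdown against siControl and the double against siNELFA, and 5, 11, 1 and 2 genes in siNELFA and in the double against siControl, siYAP and siNELFA. On log2(TPM + 0.1) the early genes were again 0, 3 and 1, and the genes 6, 5, 23, 10, 6 and 4 over the comparisons in the order of the first sentence. Without replicate 1 of both groups there were 18, 3259, 1349, 28 and 39 genes, in siNELFA, the double knockdown against siControl, siYAP and siNELFA, and between the single knockdowns. There, 5 and 2 early genes passed in the double knockdown against siControl and siYAP, and 8, 1 and 1 were past an unadjusted p in the double against siYAP and siNELFA and between the single knockdowns.

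Log2 fold changes that turned sign lay between -0.25 and 0.26. The ends were EGR1 in siYAP without siControl replicate 2 and IER5 between the single knockdowns without siYAP replicate 1. On log2(TPM + 1) and log2(TPM + 0.1), IER5 was at -0.20 and -0.21 in siNELFA and at -0.042 and -0.044 in siYAP, against siControl. KLF6 was at -0.17 and -0.18 in siNELFA against siControl and at -0.059 and -0.060 against siYAP. IER3 was at 0.042 on both in the double knockdown against siNELFA, and between the single knockdowns IER2 was at -0.10 and -0.11 and KLF4 at -0.12 and -0.13. Without replicate 1 of both groups, IER5 was at -0.039 in siNELFA and -0.044 in siYAP, KLF10 at 0.062 in siYAP, IER3 at 0.20 in the double knockdown against siNELFA and IER5 at 0.0038 between the single knockdowns. Without a filter, IER5 was at 0.0024 between the single knockdowns.

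With each library left out in turn, the early genes past an unadjusted p ranged from 0 to 2 in siNELFA against siControl, 0 to 1 in siYAP, 3 to 7 in the double knockdown, 1 to 8 in the double against siYAP, 0 to 4 against siNELFA, 0 to 1 between the single knockdowns and 0 to 1 in the interaction. Those past the adjusted threshold ranged from 0 to 6 in the double knockdown against siControl and from 0 to 6 against siYAP, with the 6 without siControl replicate 1 and without siYAP replicate 1. All genes past it ranged from 0 to 1 in siNELFA, 0 to 1 in siYAP, 0 to 4531 in the double knockdown, 0 to 2937 against siYAP, 1 to 228 against siNELFA and 0 to 2 between the single knockdowns. In siNELFA against siControl the log2 fold changes ranged from -0.20 to 0.21 for IER5, -0.057 to 0.14 for KLF6, -0.22 to 0.021 for MYC and -0.11 to 0.69 for DUSP1. In siYAP against siControl they ranged from -0.25 to 0.36 for EGR1, -0.019 to 0.40 for IER3, -0.21 to 0.23 for IER5, -0.18 to 0.018 for KLF10, -0.17 to 0.062 for MYC and -0.43 to 0.18 for DUSP1. EGR1 ranged from -0.04 to 0.51 in the double knockdown against siControl and from -0.086 to 0.42 against siYAP, where IER2 ranged from -0.063 to 0.30. Against siNELFA the double knockdown ranged from -0.049 to 0.16 for IER2, -0.25 to 0.19 for IER3 and -0.043 to 0.22 for KLF10. Between the single knockdowns the range was -0.13 to 0.22 for IER2, -0.27 to 0.26 for IER5, -0.21 to 0.28 for KLF4 and -0.15 to 0.0078 for MYC, and in the interaction -0.43 to 0.24 for KLF4 and -0.23 to 0.012 for MYC.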
